A study of Mus musculus with 8 samples.

Results

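Of 129304 accessible regions in which histone acetylation was measured in sorted brain nuclei, 396 were near silent in wild-type (WT) mice and acetylated in mice without Grn (GrnKO). They were chosen from the 125981 regions on the 19 autosomes by 4 deposited values: both WT values of H3K27ac were at most 10 scaled tags and both GrnKO values were at least 30 scaled tags. A tag is a sequenced fragment, and scaled tags are the tags of a region at a library total of 10000000. The values that chose the regions are the H3K27ac values themselves. The difference of these regions between genotypes is therefore described here, and nothing is read from a test of it. The 396 regions, each 800 bp wide, formed 331 loci when regions separated by at most 10000 bp were joined, and the table named 316 genes as the nearest to them.

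H3K27ac was profiled by chromatin immunoprecipitation and sequencing in nuclei of the brains of C57BL/6 mice aged 2 years. The nuclei were sorted as PU.1+, OLIG2- and NEUN-, which keeps myeloid nuclei and removes oligodendrocyte-lineage and neuronal nuclei. The WT group and the GrnKO group each had 2 H3K27ac libraries and 2 input libraries, the inputs being sheared chromatin without immunoprecipitation. Each replicate pooled nuclei of 2 mice, so values of single animals and the spread between them were not measured. The genotype was labelled GrnKO with no further description of the allele, and no treatment was named for either group.

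Acetylation of lysine 27 of histone H3 is deposited by the acetyltransferases p300 and CBP at active promoters and enhancers. In microglia, the resident macrophages of the brain, enhancers are opened by PU.1 together with other factors, and accessible sites without the mark are commonly called poised or inactive. Grn encodes progranulin, a secreted protein that is delivered to lysosomes and split there into granulins. In bulk nuclei, more nuclei carrying the mark at a region and more mark per nucleus cannot be told apart.

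H3K27ac libraries held 15491642.5 to 20030832 tags and inputs 4078179 to 14415969, so that the WT limit of 10 scaled tags stood for 15.5 and 18.4 tags and the GrnKO limit of 30 for 49.0 and 60.1 tags. The share of tags that fell in the listed regions was 49.4% and 63.3% in WT replicates 1 and 2, and 64.8% and 65.7% in GrnKO. The share was lowest in WT replicate 1, and the deposited values are not corrected for it. With values rescaled by TMM factors (0.825 and 1.04 in WT, 1.08 in both GrnKO libraries) the same limits chose 287 regions, of which 269 were among the 396. Dropping the values of 1 library relaxes the rule, which then chose 698 regions without WT replicate 1, 970 without WT replicate 2, 516 without GrnKO replicate 1 and 612 without GrnKO replicate 2. The promoters of 9 microglial marker genes with a listed region, among them P2ry12, Tmem119, Cx3cr1, Csf1r and Sall1, carried at least 30 scaled tags in all 4 libraries.

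Sequence was at hand for annotated promoters but not for distal regions. The 250 bases upstream of a RefSeq start site (GRCm38.p6) lay wholly inside a member for 19 distinct promoters of 17 genes among those searched. Those shown were picked because they carry the results that follow. Gpnmb, whose promoter ends 170 bp before the member with the highest GrnKO value, is at chr6:49036268-49036517 on the plus strand. Sash1, the gene with the most members, is at chr10:8886071-8886320 on the minus strand. Rragd, a lysosomal GTPase gene with both flanks of its start site among the members, is at chr4:32982748-32982997 on the plus strand. Rab15, whose member was listed at 0 in both WT libraries, is at chr12:76813857-76814106 on the minus strand. Ppp1r3c, at chr19:36736605-36736854 on the minus strand, and Mt2, at chr8:94172368-94172617 on the plus strand, hold a searched word. Sequences run 5′ to 3′ on the strand of the gene, and capitals mark a searched word on either strand.
Gpnmb: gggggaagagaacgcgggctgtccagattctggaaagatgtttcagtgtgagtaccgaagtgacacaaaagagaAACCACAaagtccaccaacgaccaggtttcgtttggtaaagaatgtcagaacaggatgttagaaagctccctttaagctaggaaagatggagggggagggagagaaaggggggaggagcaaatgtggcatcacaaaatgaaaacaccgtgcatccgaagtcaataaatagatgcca
Sash1: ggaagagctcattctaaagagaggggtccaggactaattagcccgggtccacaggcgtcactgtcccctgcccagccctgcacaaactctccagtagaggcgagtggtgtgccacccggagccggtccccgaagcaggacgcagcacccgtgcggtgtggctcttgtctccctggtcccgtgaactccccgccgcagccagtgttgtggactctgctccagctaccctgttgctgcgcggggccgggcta
Rragd: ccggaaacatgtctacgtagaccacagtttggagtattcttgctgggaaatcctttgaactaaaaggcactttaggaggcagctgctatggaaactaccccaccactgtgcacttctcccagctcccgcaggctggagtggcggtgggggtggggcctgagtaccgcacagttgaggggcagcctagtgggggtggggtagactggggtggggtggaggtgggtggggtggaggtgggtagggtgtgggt
Rab15: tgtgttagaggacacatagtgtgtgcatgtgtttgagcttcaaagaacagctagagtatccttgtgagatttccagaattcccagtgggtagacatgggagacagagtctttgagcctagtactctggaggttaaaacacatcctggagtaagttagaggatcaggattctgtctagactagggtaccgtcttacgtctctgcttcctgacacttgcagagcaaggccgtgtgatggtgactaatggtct
Ppp1r3c: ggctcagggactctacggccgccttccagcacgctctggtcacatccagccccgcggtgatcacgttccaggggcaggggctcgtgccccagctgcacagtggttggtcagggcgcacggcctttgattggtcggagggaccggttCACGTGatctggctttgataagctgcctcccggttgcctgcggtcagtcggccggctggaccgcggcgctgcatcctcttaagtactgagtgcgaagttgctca
Mt2: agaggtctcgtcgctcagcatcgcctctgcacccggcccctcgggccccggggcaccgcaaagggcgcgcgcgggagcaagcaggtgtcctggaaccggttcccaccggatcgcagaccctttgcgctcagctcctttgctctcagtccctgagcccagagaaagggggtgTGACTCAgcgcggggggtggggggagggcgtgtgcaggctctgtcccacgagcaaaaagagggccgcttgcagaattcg

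The words searched on both strands were CACGTG (the E-box read by MiT/TFE and other helix-loop-helix factors), TCATGTG (M-box), TGANTCA (AP-1), AGGAAGT (PU.1 and other ETS factors), TGCTGAC (MAF), TGTGGTT (RUNX) and TTGCNCAA (C/EBP). Each word was counted on its own, also where words overlap. CACGTG stood in 1 of the 19 promoters, that of Ppp1r3c, against 6.04% of 32536 RefSeq promoter windows of the same length. TGANTCA stood in 2 promoters (6.73% of all windows), those of Mt2 and the non-coding 9930111H07Rik. AGGAAGT stood in 3 promoters (7.70%), those of Flt1, Pianp and Serpinb1c. TCATGTG and TGCTGAC stood in 1 each (3.27% and 3.79%), and TGTGGTT and TTGCNCAA in 0 (4.41% and 2.61%). The Gpnmb promoter, which lies outside the member, holds TGTGGTT on the opposite strand. In all, 8 of 19 promoters (42.1%) held at least 1 word, against 29.7% of all windows, and the median GC content of the 19 was 58.4% (44.0 to 77.6%) against 52.4%. With 19 promoters these shares are descriptions, and a window without a word says nothing about the factor.

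**Figure D1:**
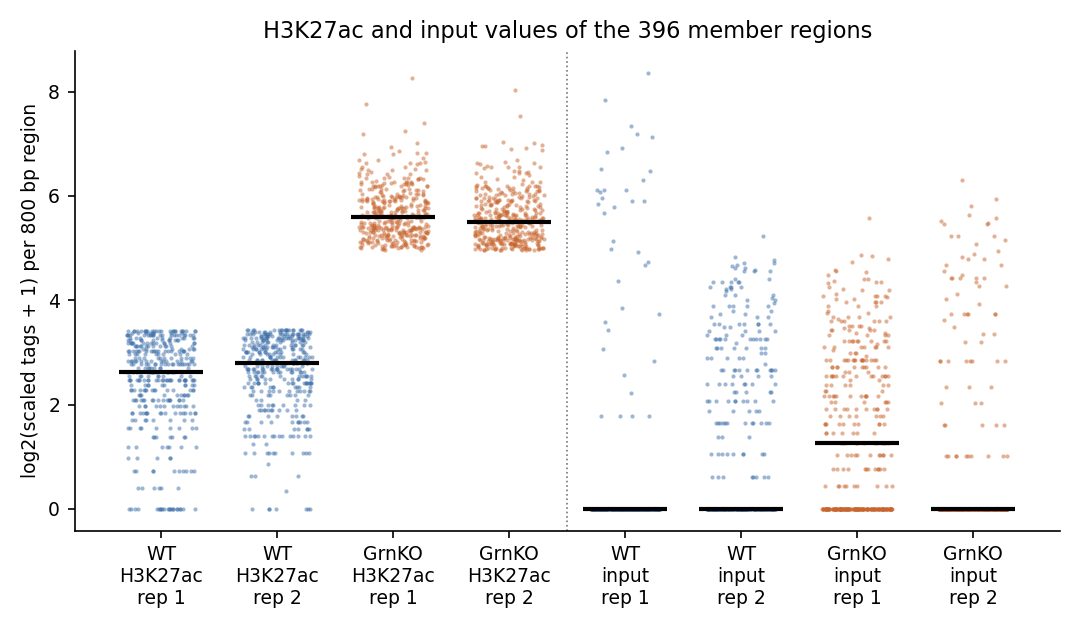
Scaled tags of the 396 regions in each library, as log2(scaled tags + 1). Every point is 1 region and black bars are medians; the 4 H3K27ac columns to the left of the dotted line include the values that chose the regions, and the 4 input columns do not. The medians of WT H3K27ac are 5.16 and 5.97 scaled tags and those of GrnKO H3K27ac 47.6 and 44.4, while input medians are at 0 in 3 of 4 libraries.

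Across the 396 regions the median was 5.16 scaled tags in WT replicate 1 and 5.97 in WT replicate 2, and 47.6 and 44.4 in GrnKO replicates 1 and 2. The mean of both GrnKO libraries ran from 30.39 to 283.8 scaled tags, with a median of 45.7: 241 regions lay under 50, 140 between 50 and 100, and 15 above 100. GrnKO replicate 1 was above replicate 2 in 246 regions. The WT values were low but mostly not zero. In 27 regions at least 1 WT library was listed at 0, and in 2, at Rab15 and Plxna2, both were, where the detection floor of 3 tags is 1.94 and 1.63 scaled tags. Among the 49283 autosomal regions with at most 10 scaled tags in all 4 libraries, WT medians were lower, 1.29 and 1.09.

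On the log2(scaled tags + 1) scale after TMM scaling, the median change of the members was 2.79 (1.39 to 5.52), against -0.0020 over all 80728 regions tested; with the authors' scaling it was 3.00 against 0.22. All 396 passed the filter on low values, which they had to do through their GrnKO values. limma called 394 of them higher at an adjusted p below 0.05, beside 9.71% of all tested regions called in either direction and 6.8% called higher; since the rule used this contrast, nothing is read from that count. Of the 2 that limma did not call, one was upstream of B4galt5 (limma adjusted p = 0.0519). The number of regions called over the whole table depended on which library was kept, from 1351 without GrnKO replicate 1 and 1880 without GrnKO replicate 2 to 12949 without WT replicate 1 and 14397 without WT replicate 2.

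The opposite rule, both WT values at least 30 and both GrnKO values at most 10, chose 8 autosomal regions. Of these, 5 were at Grn itself, and the others were nearest to Prss39, 4930552P12Rik and Mir7086. With TMM-scaled values the 2 rules chose 287 and 15 regions. The opposite rule chose 38 regions without WT replicate 1, 36 without WT replicate 2, 28 without GrnKO replicate 1 and 27 without GrnKO replicate 2.

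The limits cut through a continuous range of values, and 493 further autosomal regions had WT values of at most 12 and GrnKO values of at least 25. Among those just inside were Lmnb1 (WT 3.23 and 7.05, GrnKO 32.72 and 30.2 scaled tags) and Tmem82 (7.75 and 7.6, 36.09 and 30.2). Just outside, all with 10.01 scaled tags in WT replicate 1, were Btg1 (3.26 in WT replicate 2, GrnKO 33.34 and 32.7), Lilr4b (7.05, 58.72 and 35.69) and an intronic region of Sash1 (8.14, 48.02 and 31.7).

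The region with the highest GrnKO mean lay in intron 1 of 10 of Gpnmb, 570 bp downstream of its start (chr6:49036688-49037488). Gpnmb encodes a transmembrane glycoprotein of phagocytes and melanocytes that is a target of MITF. WT libraries held 9.04 and 8.68 scaled tags there and GrnKO libraries 307.05 and 260.6, a ratio of means of 32.0. Both other listed regions of Gpnmb were members too. The region 15253 bp upstream (chr6:49020865-49021665) had 0.32 and 1.63 scaled tags in WT, against 92.36 and 92.61 in GrnKO. The one 3213 bp into the gene (chr6:49039331-49040131) had 5.16 and 5.43 in WT and 76.46 and 67.15 in GrnKO. Summed over the 3 regions, Gpnmb went from 14.52 and 15.74 scaled tags in WT to 475.87 and 420.36 in GrnKO.

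The second highest member was in intron 2 of 5 of Cdh4, which encodes R-cadherin, 206619 bp from the annotated start (chr2:179648650-179649450), with 9.04 and 6.24 scaled tags in WT and 217.45 and 183.97 in GrnKO. Taking the highest member of each of the 12 leading genes, GrnKO means ran from 107 to 284 and the ratio of GrnKO to WT means from 12.2 to 32.0. Of these 12, 10 were intronic, 2 intergenic, and 4 lay within 1000 bp of a start site. Uqcr10, a subunit gene of respiratory complex III, had 8.71 and 2.71 scaled tags in WT, against 167.29 and 130.3 in GrnKO. The region sits 28133 bp from the Uqcr10 start, in intron 15 of 19 of a gene model, so the nearest gene is a label and not a known target. The non-coding genes Gm19689 (7.75 and 4.88, 151.08 and 119.82) and 5830416I19Rik (5.81 and 3.53, 143.74 and 117.57) followed. Cipc, which encodes a repressor in the circadian clock, had 6.78 and 4.34 in WT and 128.75 and 125.56 in GrnKO, 2414 bp into the gene.

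Stac2, an adaptor of voltage-gated calcium channels, had 8.71 and 5.43 scaled tags in WT and 111.63 and 128.3 in GrnKO in intron 1 of 10, 858 bp from the start. An intergenic region 133049 bp from Mir7237 had 3.87 and 5.7 in WT and 111.63 and 123.56 in GrnKO. Pinx1, which encodes a telomerase inhibitor, had 2.58 and 6.24 in WT and 102.45 and 123.81 in GrnKO. Its input was uneven, at 144.67 scaled tags in WT replicate 1, 0 in WT replicate 2 and 17.69 and 0 in GrnKO. At Cdo1, the cysteine dioxygenase gene, WT held 3.23 and 4.61 and GrnKO 115.6 and 102.59. The last of the 12, 43082 bp upstream of 9930014A18Rik, had 8.07 and 9.49 in WT and 98.48 and 116.07 in GrnKO. In each of these regions the WT and GrnKO values were far apart, as the rule requires.

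Most members lay far from genes' starts. The median distance to the nearest start site was 21134.5 bp, against 14098 bp for regions silent in all 4 libraries and 11011 bp for all autosomal regions. Within 1000 bp of a start site were 36 members (9.09%), beside 13.5% of silent regions and 21.7% of all regions. More than 50000 bp away were 28.5% of members, beside 20.4% and 17.9%. The farthest member was 965304 bp upstream of Arrdc3 (chr13:79917680-79918480), with 2.9 and 4.88 scaled tags in WT and 33.64 and 32.2 in GrnKO. Counting 1 member per locus left the share within 1000 bp at 9.06%, but without WT replicate 2 the rule gave 14.9%, above the 13.5% of regions silent in all 4 libraries. No test of these shares was run, and distance was not part of the rule.

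**Figure D2:**
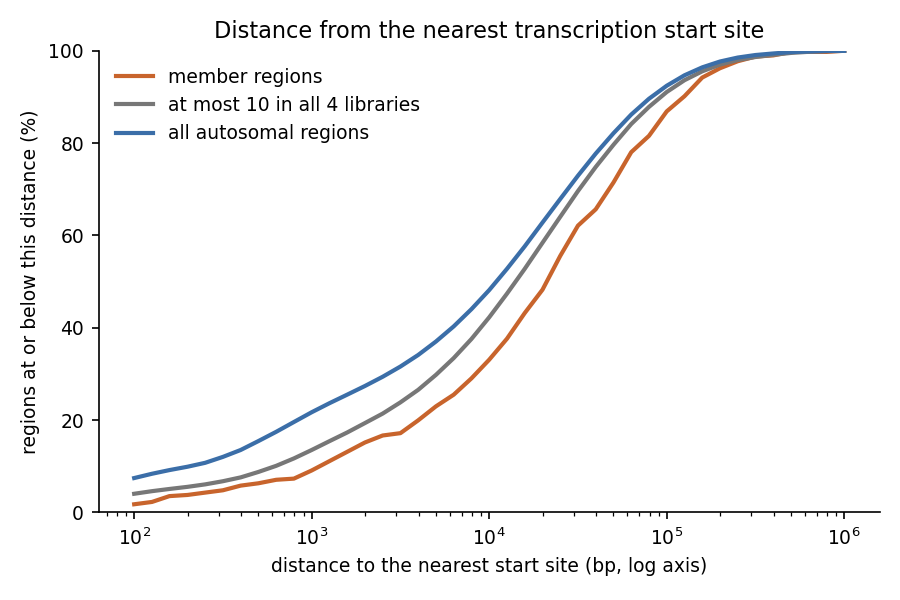
Cumulative share of regions (%) by distance to the nearest start site (bp, log axis) for the 396 members, for autosomal regions with at most 10 scaled tags in all 4 H3K27ac libraries, and for all autosomal regions. The line of the members lies below both others over most of the range, with medians of 21134.5, 14098 and 11011 bp.

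By the table's own annotation, 51.3% of members were intronic, 39.1% intergenic and 5.56% at a promoter, beside 43.5%, 39.0% and 8.19% of silent regions and 45.8%, 32.1% and 14.3% of all autosomal regions. Of intronic members, 39.4% were in intron 1, beside 37.7% and 45.0%. CpG islands, which mark many housekeeping promoters, were the annotation of 4 members (1.01%), beside 2.63% and 3.29%. Long terminal repeats of endogenous retroviruses were the annotation of 33 members (8.33%), beside 7.2% and 6.25%, and 20 of the 33 were of the ERVL-MaLR family. The ATAC-seq score that the authors gave each region was at its ceiling of 1000 in 38.4% of members, 30.4% of silent regions and 45.8% of all regions. The score names no sample and how it was made is not given in the sources used here, so it may not describe the WT or GrnKO nuclei.

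Every autosome held members. Chromosome 6, home of Gpnmb, Pparg and Mgst1, had the most, 40, followed by chromosome 2 with 39 and chromosome 3 with 31. Part of the chromosome 6 members lay close together, between chr6:88963755 and chr6:89297906, in separate loci by the 10000 bp gap. These were all members nearest to 4930512J16Rik (4), 4933427D06Rik (3) and Tpra1 (2). Per 1000 listed regions chromosome 6 was also highest (5.82), followed by chromosome 3 (4.62) and chromosome 18 (4.47, from 19 members). Chromosome 19 had 5 (1.44 per 1000) and chromosome 5 had 12 (1.52), against 3.14 per 1000 over all autosomes. No concentration was seen around the targeted gene: within 10 Mb of Grn lay 6 members, 1.52% of all members, beside 1.60% of all autosomal regions.

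**Figure D3:**
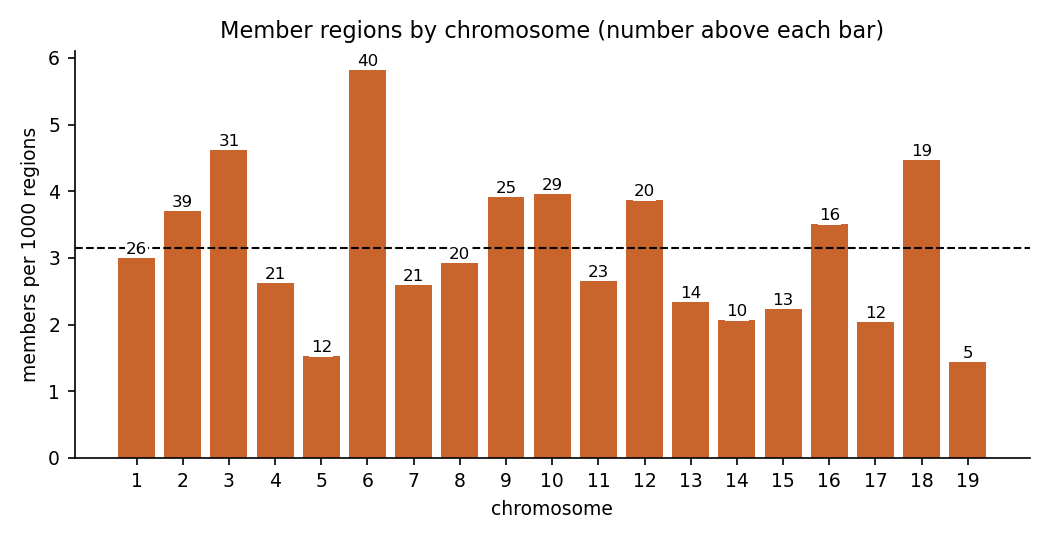
Members per 1000 listed regions on each autosome, with the number of members above each bar and the value for all autosomes as a dashed line (3.14). Chromosome 6 stands highest at 5.82 and chromosome 19 lowest at 1.44.

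Of the 331 loci, 278 held a single member, 44 held 2, 7 held 3, 1 held 4 and 1 held 5, so that 118 members (29.8%) shared a locus with another. Tags are shared where regions overlap: 47 members overlapped another member, and 108 further regions overlapped a member without meeting the limits. The locus with the most members, 5 of 8 listed regions, was at chr12:73199132-73211040 inside intron 6 of 7 of a gene model, with Mnat1, an assembly factor of the CDK-activating kinase, and Trmt5, a tRNA methyltransferase gene, as nearest genes. Summed over its 5 members it went from 33.89 and 32.29 scaled tags in WT to 260.25 and 265.59 in GrnKO. The 3 regions between them that were not members held 19.37, 44.54 and 39.05 scaled tags in WT replicate 1 and 1.63, 14.65 and 24.68 in WT replicate 2, and all 3 were called higher by limma.

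Sash1, which encodes a signalling scaffold with SAM and SH3 domains, had the most members of any gene, 7 of 63 listed regions. Its main locus (chr10:8870239-8886594) joined 4 members from the promoter to 15431 bp into intron 1. At the promoter (chr10:8885794-8886594) WT held 6.46 and 9.22 scaled tags and GrnKO 110.1 and 94.6. The region 11875 bp downstream held 8.07 and 4.61 in WT and 122.03 and 98.1 in GrnKO. A member 74117 bp into the gene was nearly empty in WT, at 0.65 and 0, and held 48.93 and 30.95 in GrnKO. Over the gene, 37 regions passed the filter, of which limma called 17 higher, 7 of them the members, and 0 lower, beside 6.8% of all tested regions called higher, and the 63 regions summed to 442.51 and 421.8 scaled tags in WT against 1562.78 and 1441.51 in GrnKO.

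Of the next 7 loci, each with 3 members, those at Ripk4, Dscam, Cubn, Manba and Gng12 lay within introns. Ripk4, a kinase gene, had 14.2 and 4.35 scaled tags in WT and 167.29 and 194.95 in GrnKO over its 3 members. Dscam, a neuronal adhesion gene, had 16.14 and 18.72 in WT and 156.28 and 175.48 in GrnKO, all in intron 1 of 32. Cubn, which encodes the endocytic receptor cubilin, had 13.87 and 16.27 in WT and 136.7 and 124.8 in GrnKO, all in intron 27 of 66.

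The non-coding gene 4930512J16Rik had 5.48 and 19.8 scaled tags in WT and 238.85 and 173.73 in GrnKO over its promoter and 2 upstream members. A locus in intron 3 of 4 of a gene model, with Gng12, a G-protein subunit gene, and the non-coding E230016M11Rik as nearest genes, had 16.14 and 11.93 in WT and 181.35 and 146.27 in GrnKO. Zfpm1, which encodes a GATA cofactor, was nearest to 3 members from 134438 to 142188 bp upstream, with 10.33 and 16.28 in WT and 121.42 and 149.03 in GrnKO. Manba, the lysosomal beta-mannosidase gene, had 15.49 and 22.24 in WT and 121.1 and 116.82 in GrnKO in introns 4 and 5 of 16. The Gng12 locus also holds regions with WT signal, one of which had 46.8 and 56.42 in WT and 170.96 and 187.21 in GrnKO.

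**Figure D4:**
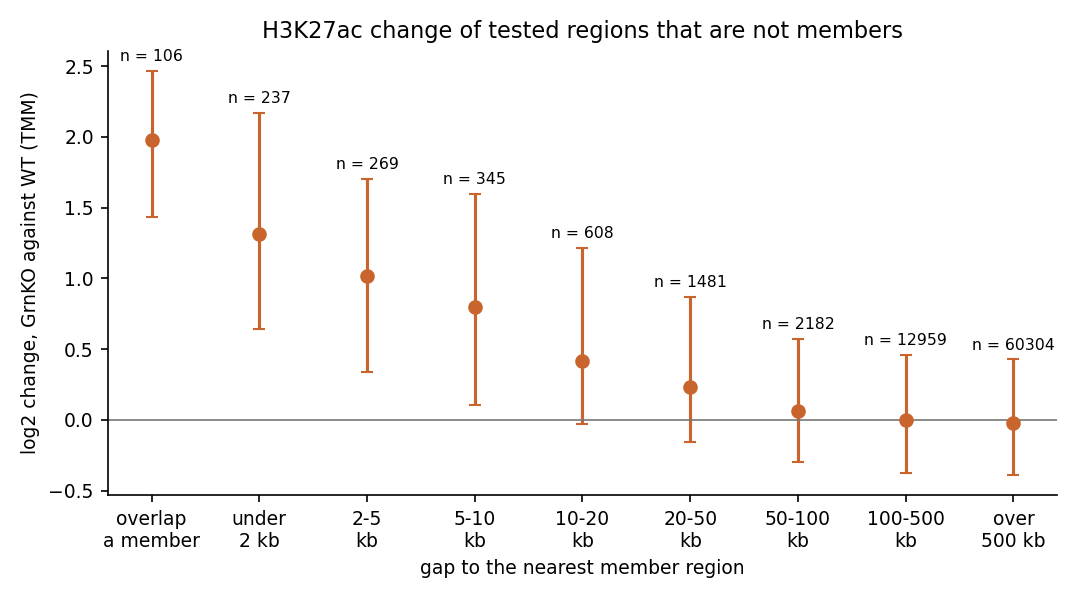
log2 change of H3K27ac, GrnKO against WT after TMM scaling, of tested regions that are not members, by gap to the nearest member. Points are medians and bars quartiles over the number of regions printed above each; the medians go from 1.98 for regions that overlap a member to -0.02 beyond 500000 bp.

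Regions around the members were higher in GrnKO as well. Of 851 tested regions that did not overlap a member but lay within 10000 bp of one, the median log2 change was 1.02, and 325 (38.2%) were called higher and 7 lower by limma; over all tested autosomal regions that were not members 6.43% were called higher. The median change was 1.32 within 2000 bp, 1.02 from 2000 to 5000 bp, 0.80 from 5000 to 10000 bp, 0.42 from 10000 to 20000 bp, 0.23 from 20000 to 50000 bp and 0.06 from 50000 to 100000 bp. It was -0.0041 from 100000 to 500000 bp and -0.02 beyond. The 106 tested regions that overlapped a member, and so share tags with it, had a median of 1.98. With the authors' scaling the median within 10000 bp was 1.24, against 0.22 over all tested regions. These neighbours carried more signal in WT than the members, with medians of 18.1 and 18.7 scaled tags in WT, against 51.7 and 47.9 in GrnKO. The decline with distance comes from the same 4 libraries that chose the members and is given as a description.

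Members lay somewhat closer than other silent regions to regions that were already acetylated in WT, taken as at least 30 scaled tags in both WT libraries. The median gap was 28715.5 bp for members and 37976 bp for regions silent in all 4 libraries. For regions with both WT values at most 10 scaled tags, which include the members, it was 35322 bp. Members lay farther away than autosomal regions as a whole, whose median gap was 8285 bp. That set includes the acetylated regions themselves. Within 10000 bp of a region acetylated in WT were 107 of the 396 members, and more than 50000 bp away were 148 (37.4%). Of regions silent in all 4 libraries 20.5% and 42.5% were. The shares were 22.5% and 40.8% of regions silent in WT, and 52.2% and 23.9% of all autosomal regions.

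At start sites, 36 members within 1000 bp of a start belonged to 32 named genes. Their GrnKO means ran from 31.2 to 284 scaled tags with a median of 50.1, and their WT means from 0 to 9.72 with a median of 5.97. Among them were Rab15, Rragd, Dock10, Tbc1d12, a Rab GTPase-activating protein gene, and Kif1a, a kinesin gene. At Rab15 (chr12:76813321-76814121) both WT libraries were listed at 0 and GrnKO held 38.84 and 55.41 scaled tags, at least 26.4-fold above the mean WT floor of 3 tags per library. At Plxna2, a semaphorin receptor gene (chr1:194620072-194620872), both WT libraries were also listed at 0 and GrnKO held 31.19 and 33.2, at least 18.1-fold above that floor. WT input replicate 1 held 58.85 scaled tags at Rab15 and the other 3 inputs 0.

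Mgst1, a microsomal glutathione transferase gene, had 2 promoter members: 0 and 4.88 scaled tags in WT and 57.8 and 34.45 in GrnKO at one, 6.78 and 5.43 in WT and 59.03 and 45.68 in GrnKO at the other. Mt2, a metallothionein gene, had 7.42 and 6.51 in WT and 70.95 and 54.17 in GrnKO. Cdo1 had a second member at its start, with 8.71 and 3.8 in WT and 72.18 and 85.62 in GrnKO. Ppp1r3c, which encodes a glycogen-targeting phosphatase subunit, had 6.46 and 0 in WT and 59.94 and 40.19 in GrnKO. GrnKO replicate 1 was the higher library at Mgst1, Mt2 and Ppp1r3c, and replicate 2 at the Cdo1 start.

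Further promoter members were at genes of varied function. Anpep, the aminopeptidase N gene, had 9.04 and 1.9 scaled tags in WT and 74.32 and 61.41 in GrnKO (chr7:79847804-79848604, at the start site). Galnt3, a gene of O-linked glycosylation, had 4.84 and 6.24 in WT and 57.5 and 66.65 in GrnKO. Flt1, which encodes a receptor of vascular endothelial growth factor, had 0.97 and 7.05 in WT and 41.29 and 45.68 in GrnKO. Pam16, a mitochondrial import gene, had 7.42 and 4.34 in WT, against 54.44 and 30.95 in GrnKO. The remaining promoter members belonged to Adhfe1, Ablim1, Aprt, B4galt7, Card14, Mocos, Pianp, Sh3pxd2b, Tmem205, Tmem266, Tmem82 and Vat1, to Gpnmb, Sash1 and Stac2, which are described above, to 3 non-coding genes and to 1 gene without a name, with GrnKO means from 32.4 to 284.

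Members were set beside 9 gene lists that cover microglial states, lipid handling, lysosomes and inflammation. Of 265 listed genes with an autosomal region, 13 had at least 1 member, with 18 member regions in all; over all autosomal genes the share with a member was 1.75%. The list of disease-associated microglia, a state described around plaques and in neurodegeneration, had 3 of 36 genes with a member (Fabp5, Gpnmb and Igf1). Lipid and cholesterol handling had 4 of 33 (Fabp5, Plin2, Pparg and Rxra), lysosomal genes 5 of 60 (Atp6v0d1, Gpnmb, Hpse, Manba and Plin2), the mTORC1, Rag and MiT/TFE list 2 of 23 (Fnip2 and Rragd), and inflammatory genes 2 of 25 (Nos2 and Tlr2). Homeostatic microglia (27 genes), complement and phagocytosis (23), adhesion and matrix (31) and interferon and antigen presentation (26) had 0. A gene with more listed regions has more that can meet the rule, so members were also counted per 1000 regions. There were 12.9 for lysosomal genes, 11.2 for mTORC1, Rag and MiT/TFE and 10.4 for disease-associated microglia. Lipid handling had 8.39 and inflammatory genes 6.41, against 3.14 over all autosomal genes. Some genes stand in more than 1 list, and the counts are too small to set lists apart.

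Over all tested regions of each list's genes, limma called 26.9% higher for disease-associated microglia, 26.1% for mTORC1, Rag and MiT/TFE, 18.5% for lipid handling and 16.8% for lysosomes, beside 6.8% of all tested regions; 2.92% of all were called lower. For homeostatic microglia 2.42% were called higher and 12.3% lower, and for adhesion and matrix 6.08% higher and 6.76% lower. Complement and phagocytosis had 8.84% higher and 1.10% lower, inflammatory genes 4.64% and 4.22%, and interferon and antigen presentation 0.699% and 2.10%. Most lower calls were lost under the authors' scaling, where 0.412% of all tested regions were called lower, and the share fell to 0.537% for homeostatic microglia (4 regions in place of 92) and to 2.70% for adhesion and matrix, while the shares called higher were 29.1% for disease-associated microglia, 28.0% for mTORC1, Rag and MiT/TFE, 20.4% for lipid handling and 18.1% for lysosomes, beside 8.15% of all. The counts by list, and those given for single genes below, include the members themselves. The order of the lists by this share and by genes with a member was not the same: the inflammatory list had 2 genes with a member, and the complement and phagocytosis list had 0.

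Within the nutrient-sensing list, Rragd encodes RagD, one of the GTPases that bring mTORC1 to the lysosome, and 2 of its 3 listed regions were members. Of these, the one centred 130 bp upstream of the start (chr4:32982468-32983268) held 3.87 and 4.61 scaled tags in WT, against 68.2 and 50.67 in GrnKO. The other, 833 bp into the gene (chr4:32983431-32984231), held 4.84 and 8.95 in WT, against 79.82 and 72.14 in GrnKO. The third region lies between them and overlaps both, so it shares tags with the members and its values are not independent of the rule. It missed the rule by its 12.48 scaled tags in WT replicate 2, with 5.16 in WT replicate 1 and 113.77 and 94.6 in GrnKO, and limma also called it higher. Fnip2, which encodes a partner of folliculin in the same pathway, had 1 member, 23382 bp into intron 1, with 2.26 and 7.05 in WT, against 40.68 and 33.2 in GrnKO. There the member was one of the weaker regions: limma called 17 of 26 tested Fnip2 regions higher and 0 lower, and the promoter held 38.09 and 87.89 in WT and 286.87 and 310.02 in GrnKO (log2 change 2.12, SE 0.24, limma adjusted p = 2.69e-05).

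Among lysosomal genes, Hpse, which encodes heparanase, had a member 9232 bp upstream with 2.9 and 4.34 scaled tags in WT, against 46.79 and 33.95 in GrnKO. The Hpse promoter was just outside the rule at 10.01 in WT replicate 1, with 5.43 in WT replicate 2 and 92.97 and 106.84 in GrnKO (log2 change 3.36, SE 0.41, limma adjusted p = 5.64e-05), and 5 of 6 tested regions of the gene were called higher. Manba differed from this: limma called 4 of 18 tested regions higher, 3 of them the members, and its promoter, at 45.83 and 44.21 in WT and 73.4 and 64.4 in GrnKO, did not pass (log2 change 0.38, SE 0.28, limma adjusted p = 0.457). Atp6v0d1, a subunit gene of the lysosomal proton pump, had a member in intron 1 of 7 with 8.07 and 8.14 in WT and 37.01 and 39.94 in GrnKO, and a promoter that passed by a small margin (log2 change 0.81, SE 0.24, limma adjusted p = 0.0428).

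For lipid handling, Pparg encodes a nuclear receptor that drives lipid storage genes, and Rxra its dimer partner. The Pparg member (chr6:115462796-115463596, in exon 6 of 8, 41130 bp from its nearest annotated start) had 3.23 and 8.14 scaled tags in WT, against 75.85 and 79.13 in GrnKO. The Pparg promoter region in the table (chr6:115361131-115361931) belongs to another annotated start, farther upstream. It had no more signal in GrnKO than WT replicate 2 had, with 2.58 and 10.04 in WT and 7.03 and 5.74 in GrnKO. No Pparg region was listed within 1000 bp of the start nearest to the member. Of 14 tested regions of the gene, 6 were called higher. The Rxra member, in intron 1 of 9, had 9.04 and 5.97 in WT and 75.23 and 58.41 in GrnKO, and 10 of 44 tested Rxra regions were called higher. The Rxra promoter region read (chr2:27677165-27677965) also belongs to another annotated start than the one nearest to the member. It did not pass (log2 change 0.29, limma adjusted p = 0.463). Plin2, which encodes a lipid droplet coat protein, had a member 20418 bp upstream with 3.55 and 8.68 in WT and 62.08 and 60.41 in GrnKO, and 6 of 8 tested regions called higher, while its promoter did not pass (log2 change 0.71, limma adjusted p = 0.129). Fabp5, a fatty acid carrier gene, had a member 7959 bp downstream of its start with 5.81 and 3.26 in WT and 37.31 and 38.44 in GrnKO. Fabp5 had 9 of 13 tested regions called higher, its promoter among them at 42.93 and 18.45 in WT and 171.88 and 130.3 in GrnKO.

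Igf1, the gene of a growth factor that microglia release, had a member 52311 bp upstream with uneven WT values, 0.32 and 8.95 scaled tags, and 43.73 and 47.43 in GrnKO. Of 24 tested Igf1 regions 18 were called higher and 0 lower. The Igf1 promoter region read was at 56.48 and 48.01 in WT and 230.9 and 181.47 in GrnKO. Its annotated start is not the one nearest to the member. In the inflammatory list, Nos2, the inducible nitric oxide synthase gene, had a member 4192 bp upstream with 9.36 and 5.43 in WT and 56.27 and 63.9 in GrnKO, while its promoter was at 1.61 and 0 in WT and 1.53 and 0 in GrnKO. Tlr2, a receptor gene for bacterial lipoproteins, had a member 43659 bp upstream with 3.55 and 9.22 in WT and 32.72 and 35.45 in GrnKO, and 3 of 22 tested regions called higher, while its promoter did not pass (log2 change 0.30, limma adjusted p = 0.288).

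**Figure D5:**
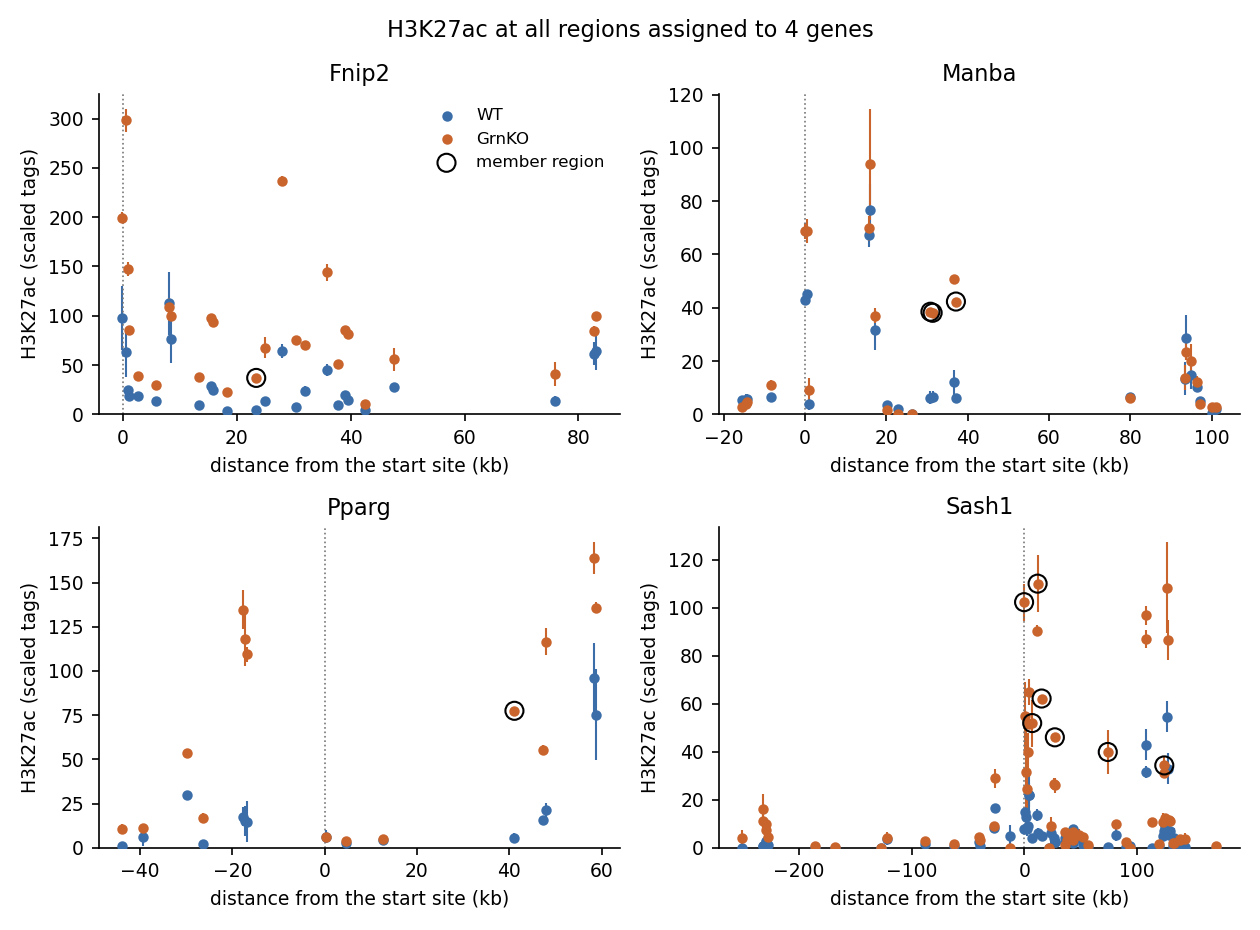
H3K27ac in scaled tags at every listed region of Sash1, Manba, Fnip2 and Pparg against distance from the nearest annotated start site (kb). For Pparg this is not the same start for every region. Points are genotype means, bars span both replicates, and circles mark the members. The Sash1 members include the promoter, and the Fnip2 member is one of the lower GrnKO points of a gene with 17 regions called higher. The listed Pparg promoter region, at another start than the one nearest to the member, shows no GrnKO signal above 10 scaled tags.

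Promoters of the genes nearest to distal members were looked at next, with promoters that are or overlap a member left out. Of 291 genes nearest to a distal member, 12 were left out for this reason and 224 others had a promoter region in the table. In WT 115 of the 224 (51.3%) had a mean of at least 30 scaled tags and 65 (29.0%) of at most 10, close to the 46.7% and 32.0% of all autosomal genes. Of 201 tested promoters, limma called 37 (18.4%) higher and 2 (0.995%) lower, beside 3.68% and 1.68% of all tested promoters, and the median log2 change was 0.42 against -0.02. Promoters called higher included Galm, Rftn1, Gramd1b and Lmna, named after their values were seen. Gramd1b, which encodes a sterol transfer protein, went from 52.93 and 53.44 to 216.53 and 229.65 scaled tags. The 2 called lower were Grn and Cd38, which encodes a NAD-consuming surface enzyme and went from 23.56 and 31.74 to 14.07 and 1.5. These promoters come from the same libraries and lie near members, so their counts are not independent of the rule. A gene with several annotated starts was read at a single promoter region, which need not be at the start nearest to its member.

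At Grn the labels could be checked. The listed region farthest upstream (chr11:102428898-102429698) held 482.84 and 453.8 scaled tags in WT and kept 112.85 and 112.33 in GrnKO. The region 631 bp upstream of the start held 584.51 and 572.61 scaled tags in WT and 7.34 and 6.49 in GrnKO, and the 4 regions from 13 bp upstream to 2485 bp downstream held 113.61 to 310.85 in WT and were listed at 0 in both GrnKO libraries, where 3 tags are 1.83 and 1.5 scaled tags. One region of Grn was itself a member. It lies 4247 bp downstream of the start, in intron 7 of 12 (chr11:102434169-102434969), with 0.65 and 6.24 in WT and 36.09 and 49.92 in GrnKO. Its input values were 0 and 4.28 in WT, against 6.24 and 0 in GrnKO. The 3 listed regions further downstream were at 7.03 or less in all 4 libraries.

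The inputs were not part of the rule and serve as a measure independent of it. Members took 0.510% and 0.357% of the input tags in autosomal regions in WT, against 0.360% and 0.333% in GrnKO. The WT mean was 0.433% ± 0.108 (SD, n = 2), and the GrnKO mean was 0.347% ± 0.0192 (SD, n = 2). An exact permutation test, two-sided, gave p = 0.667, and the smallest p that 2 against 2 allow is 0.333. WT replicate 1 had the highest share, also without the 21 members and 4975 autosomal regions of over 30 input tags, where the shares were 0.417% and 0.368% in WT, against 0.339% and 0.362% in GrnKO. Per region the inputs say little, because 90.4% and 58.3% of members had no input tag in WT and 40.4% and 81.1% none in GrnKO. Of the 248 members with enough input tags, limma called 0 different between genotypes, beside 0% of 76825 regions, and 1 member (0.403%) had an unadjusted p under 0.05, beside 256 regions (0.333%) in all. edgeR also called 0, with 0 at an unadjusted p under 0.05. Without GrnKO input replicate 2, limma called 27237 of the 76825 regions, 27226 of them higher in GrnKO, so the count of 0 rests on that library.

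Markers of other brain and blood cells were read at their promoters. Of 46 markers of 9 other cell types, 18 had a promoter region; their summed level was 213 and 245 scaled tags in WT and 484 and 405 in GrnKO, while 9 microglial markers summed to 3704 and 5504 in WT and 4258 and 4489 in GrnKO. Among the microglial promoters, limma called Tmem119 (log2 change -0.65, limma adjusted p = 0.00922) and Siglech (log2 change -0.57, limma adjusted p = 0.0385) lower in GrnKO and 0 higher; with the authors' scaling neither passed (limma adjusted p = 0.397 and 0.561). Of the 8 promoters of other cell types that could be tested, limma called 3 higher in GrnKO and 0 lower, beside 3.68% and 1.68% of all tested promoters. Those called were Ms4a7, a marker of border macrophages, from 30.66 and 30.65 to 142.21 and 114.07; Flt1, listed for endothelium, from 5.81 and 11.39 to 64.84 and 67.65; and S100a8, listed for monocytes and neutrophils, from 0 and 5.43 to 22.02 and 20.22. The other border macrophage promoters did not pass, with Mrc1 at 32.6 and 87.07 in WT and 92.36 and 90.36 in GrnKO, Pf4 at 30.34 and 17.9 in WT and 30.89 and 17.22 in GrnKO, and F13a1 at 20.98 and 26.85 in WT and 42.51 and 23.46 in GrnKO. Of the oligodendrocyte promoters, Mog was at 44.54 and 49.37 in WT and 29.67 and 27.21 in GrnKO, Mbp at 16.46 and 11.66 in WT and 33.03 and 28.46 in GrnKO, and neither passed. Promoters of neuronal (2), B cell (1), T cell (1) and dendritic cell (2) markers were at 5.5 scaled tags or less in every library. Of 3 astrocyte promoters, Aldh1l1 was at 3.55 and 0.27 in WT and 12.84 and 4.99 in GrnKO, Slc1a2 at 7.1 and 0 in WT and 3.67 and 2.5 in GrnKO, and Gja1 at 4.52 or less. Flt1 was the only marker in these lists that was nearest to a member. Its promoter region overlaps that member and shares tags with it, so the Flt1 call is not independent of the rule. The part of these cell types in the members was not tested.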

How the data were processed

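H3K27ac and input libraries were read from 1 deposited table of 129304 ATAC-seq regions. Per the file headers, the authors counted tags in HOMER and scaled this signal to 10000000 tags per library; mm10, Bowtie2, HOMER and DESeq2 are named in the submitters' processing notes, without versions, and duplicate handling is not given in the sources used here. The ATAC-seq peak score in the deposited table is the authors' own. Multiplying by the library totals gave whole read ends, at 2 per tag, for 100% of values within a tolerance of 0.0051 to 0.021 read ends, depending on the library. RefSeq start sites of GRCm38.p6 lay within 10 bp of those implied by the table for 91.3% of 21799 promoter regions.

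H3K27ac was fitted with limma 3.58.1 (lmFit, eBayes with trend) in R 4.3.3 on log2(scaled tags + 1) after TMM scaling (edgeR 4.0.16), which understates changes of low regions. filterByExpr with a minimum of 10 kept 80728 regions, and calls were made at a Benjamini-Hochberg adjusted p of 0.05. Inputs were fitted on the authors' scaling, with at least 5 tags over the 4 libraries. edgeR and DESeq2 1.42.0 on the recovered reads were alternatives, and all fits were tested on simulated data. Reads carried no molecular identifiers, so floors cover counting error only, and p-values measure the spread between 2 pools per genotype.

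The members and gene lists were chosen with earlier results of these data known. Named are the 10 loci with the most members, the highest member of each of 12 genes, members of listed genes, members within 1000 bp of a start site, regions nearest the limits, and Grn; 1 region that this rule names is not reported here. All 8 columns of values were used. Sequences of distal regions were not analysed here, and the sequence search left out chromosome 18.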

Additional observations from a re-analysis of the deposited data

Results flagged for a closer look

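The rule covers autosomes only. On chromosome X, 4 regions met the same limits, and none enters the counts above. Gla, the lysosomal alpha-galactosidase gene, had one 1416 bp into the gene (chrX:134599189-134599989), with 8.39 and 4.07 scaled tags in WT and 58.41 and 38.44 in GrnKO. Dnase1l1, which encodes a deoxyribonuclease, had 9.04 and 2.98 in WT, against 43.43 and 35.69 in GrnKO. Akap17b had 3.23 and 4.34 in WT, against 51.69 and 53.92 in GrnKO. A region upstream of 8030474K03Rik had 5.49 and 4.61 in WT, against 33.64 and 33.2 in GrnKO. The sex of the pooled mice is not used here.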

How the results depend on the processing

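Of 83 alternative values, 49 stayed close to the reported ones, 32 moved, 2 no longer passed (the lower calls at the Tmem119 and Siglech promoters) and 0 reversed. Tighter limits left fewer members: 86 in 82 loci with WT at most 5, and 204 in 176 loci with GrnKO at least 40 scaled tags. Leaving out 1 library gave 516 to 970 members in 434 to 810 loci, with 9.30% to 14.9% within 1000 bp of a start site; fewer values to satisfy raise the count by construction. The median log2 change of neighbours within 10000 bp was 1.24 with the authors' scaling, 0.84 with a pseudocount of 5, 0.86 without the filter, 0.47 within 50000 bp, and 0.91 to 1.13 with 1 library left out. limma called 1351 to 14397 H3K27ac regions with 1 library left out, where the lone library is assumed to vary like the other group and 1 residual degree of freedom remains. With the authors' scaling it called 6914 regions, 95.2% of them higher, against 70.0% of 7842 with TMM. For inputs it called 1 region with a pseudocount of 5, and 0 to 27237 with 1 library left out, the highest without GrnKO replicate 2. The median input difference of members was 0 to 0.899 with 1 input left out, the highest without WT replicate 2, where the median over all autosomal regions was 0.899 too. A replicate block gave 11391 H3K27ac calls, 0 input calls and the same neighbour median of 1.02. Equal replicate numbers do not mark shared animals, and the deviations of equally numbered libraries correlated at 0.034. The causes of these shifts were not tested. The alternative for piled-up input regions and the authors' scaling of list and promoter calls were chosen after seeing the data. Input depth limits what can be said of single regions, and 2 pools per genotype limit every comparison.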

Other observations

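The members in this section lay nearest to genes outside the gene lists; they were chosen after their values were seen, and they stand for no group that was counted or tested. Mcoln2 and Mcoln3 encode mucolipins, calcium-permeable channels of endosomes and lysosomes, and are neighbours on chromosome 3. The Mcoln3 member, 3522 bp upstream of the start (chr3:146117869-146118669), held 4.52 and 1.09 scaled tags in WT and 82.57 and 69.14 in GrnKO. The Mcoln2 member, in intron 1 of 13 (chr3:146156606-146157406), held 8.07 and 5.15 in WT, against 48.02 and 65.15 in GrnKO. Plekhm1, which encodes an adaptor for fusion of late endosomes and autophagosomes with lysosomes, had a member in intron 1 of 11 with 9.04 and 4.61 in WT, against 72.48 and 54.67 in GrnKO. Lyst, the gene mutated in Chediak-Higashi syndrome, had one 13864 bp upstream with 5.16 and 7.6 in WT, against 40.68 and 30.45 in GrnKO.

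Gdf15, which encodes a stress-induced cytokine, had a member 1198 bp downstream of its start (chr8:70630497-70631297), with 6.13 and 8.95 scaled tags in WT and 63.61 and 63.65 in GrnKO. Slc7a11, the cystine transporter gene, was nearest to a member 171978 bp upstream with 9.04 and 9.49 in WT, against 57.8 and 45.93 in GrnKO. Sesn1, a nutrient-sensing gene, was nearest to one with 5.16 and 8.41 in WT, against 49.54 and 41.94 in GrnKO. Ripk4 and Sox7 had promoters listed at 0 in both WT libraries that limma called higher, at 38.23 and 23.71 scaled tags in GrnKO for Ripk4 and 20.8 and 33.7 for Sox7. The Ripk4 members lie in its introns, and the Sox7 member lies 40868 bp upstream, in intron 6 of 6 of another gene model. The Sox7 member and the Pinx1 member described above form a single locus. The Pinx1 promoter, at 27.76 and 17.36 in WT and 28.44 and 19.47 in GrnKO, was not called (limma adjusted p = 0.907).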
